A study of Mus musculus with 3 samples.

Results

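The mitochondrial ribosomal protein genes were taken as every counted gene whose symbol begins with Mrpl or Mrps followed by a number, and 80 of the 17992 counted genes met this rule. By textbook roles, 50 of them encode proteins of the large subunit of the mitochondrial ribosome and 26 encode proteins of the small subunit. Mrps36 carries the family name, but its product is known as a component of the 2-oxoglutarate dehydrogenase complex and is kept apart here. The remaining 3 symbols, Mrpl23-ps1, Mrpl27-ps and Mrpl48-ps, have a pseudogene suffix.

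Brain RNA of adult C57BL/6 mice, all wild type, was sequenced as 1 library each for AGNHW, vehicle and sham. The mice labelled AGNHW were given AGNHW (Angong Niuhuang Wan, a Chinese medicine) at 3 mg per g per day, and the labels do not restate the artery occlusion for them. Vehicle is the model of stroke made by blocking the middle cerebral artery, and sham is the surgical control without that block. None of the sources used here gives the brain region, the time after surgery, the sex or how many mice were used per library, and no library had a replicate.

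Mitochondrial ribosomes translate the few messenger RNAs that mitochondrial DNA encodes, all of them for subunits of the respiratory chain and ATP synthase. Their RNA parts come from mitochondrial DNA, whereas every protein part is encoded in the nucleus, made in the cytosol and imported. Many of these proteins have counterparts in bacterial ribosomes, and others are found in mitochondria only. Neurons depend heavily on the respiratory chain, and inherited defects of several of these genes cause disease of brain, heart or liver in humans.

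The libraries held 18184691 counts for AGNHW, 15718594 counts for vehicle and 18286151 counts for sham. Counts were scaled by the trimmed mean of M-values (TMM) to CPM, which puts the libraries on a common total, and the 15558 genes with a mean of at least 1 CPM were compared. The size rule asked for a CPM ratio of at least 1.5 in either direction with a 95% counting interval that excludes 1. "Higher" and "lower" describe these libraries, and intervals, given in brackets after a ratio, cover counting error only. The vehicle library stood apart in markers of pituitary and blood. The 7 counted pituitary markers summed to 4.60 CPM in AGNHW, 3745 CPM in vehicle and 4.41 CPM in sham, with 1 of them at 0 in AGNHW, 0 in vehicle and 3 in sham. The 5 red cell markers summed to 65.1, 163 and 52.8 CPM in the same libraries, with none at 0. Markers of neurons summed to 9536 CPM in AGNHW, 10082 CPM in vehicle and 9549 CPM in sham, with none at 0, so brain RNA was present in each library. Among the other brain cells, markers of oligodendrocytes (6 genes) summed to 8604 CPM in AGNHW, 9238 CPM in vehicle and 7057 CPM in sham, and their ratio of vehicle to sham was 1.31 (1.30 to 1.32). Those of astrocytes (6 genes) summed to 2017, 1738 and 2481 CPM in the same libraries, a ratio of 0.700 (0.690 to 0.711) in vehicle against sham, and those of microglia (6 genes) to 187, 170 and 226 CPM, a ratio of 0.752 (0.716 to 0.790). Endothelial markers (5 genes) summed to 226, 205 and 207 CPM, and no marker of these lists was at 0. These sums hide single markers that differed in vehicle against sham. By the size rule, oligodendrocytes had 1 higher and 1 lower, astrocytes 1 and 2, and microglia 0 and 2. Over all genes 8.66% were higher and 14.2% lower. The median log2 ratios of these 3 lists were 0.34, -0.44 and -0.19. After the correction for transcript length and GC content described below they were -0.06, -0.01 and -0.49. The part of pituitary tissue, blood and the mixture of brain cells in the ratios below was not tested. Ratios of AGNHW against sham, which leave out the vehicle library, are given for the family and some of its members, and not for the other lists. In RNA of whole tissue, fewer cells of a type and less RNA per cell cannot be told apart.

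The mitochondrial ribosomal protein genes took up 0.263% of the counts in AGNHW, 0.290% in vehicle and 0.234% in sham. All but Mrpl23-ps1 reached a mean of 1 CPM, so 79 were measured, with mean levels between 1.56 and 85.3 CPM and a median of 30.0 CPM. Mrpl23-ps1 had 12 counts in AGNHW, 17 counts in vehicle and 5 counts in sham. Among all 77 symbols without a pseudogene suffix no library had fewer than 140 counts. Over the measured members, the median bound of a counting interval lay 1.13-fold from its ratio.

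Per kilobase of annotated transcript, the highest levels were those of Mrpl41, Mrps34, Mrps21, Mrpl42 and Mrpl38, and the lowest those of Mrpl48-ps, Mrpl1, Mrpl47, Mrps30 and Mrps35. Mrpl41, a large-subunit protein without a bacterial counterpart, had 101 CPM per kilobase in AGNHW, 124 CPM per kilobase in vehicle and 73.8 CPM per kilobase in sham. Mrps34, a mitochondria-specific protein of the small subunit, had 75.9, 112 and 61.0 CPM per kilobase in the same libraries. At the other end, Mrpl1, the protein of the mobile stalk beside the exit of the transfer RNAs, had 3.13 CPM per kilobase in AGNHW, 3.01 CPM per kilobase in vehicle and 3.48 CPM per kilobase in sham. These levels rest on the length of 1 principal transcript per gene, and a gene that uses a shorter form in brain would be placed too low.

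**Figure D1:**
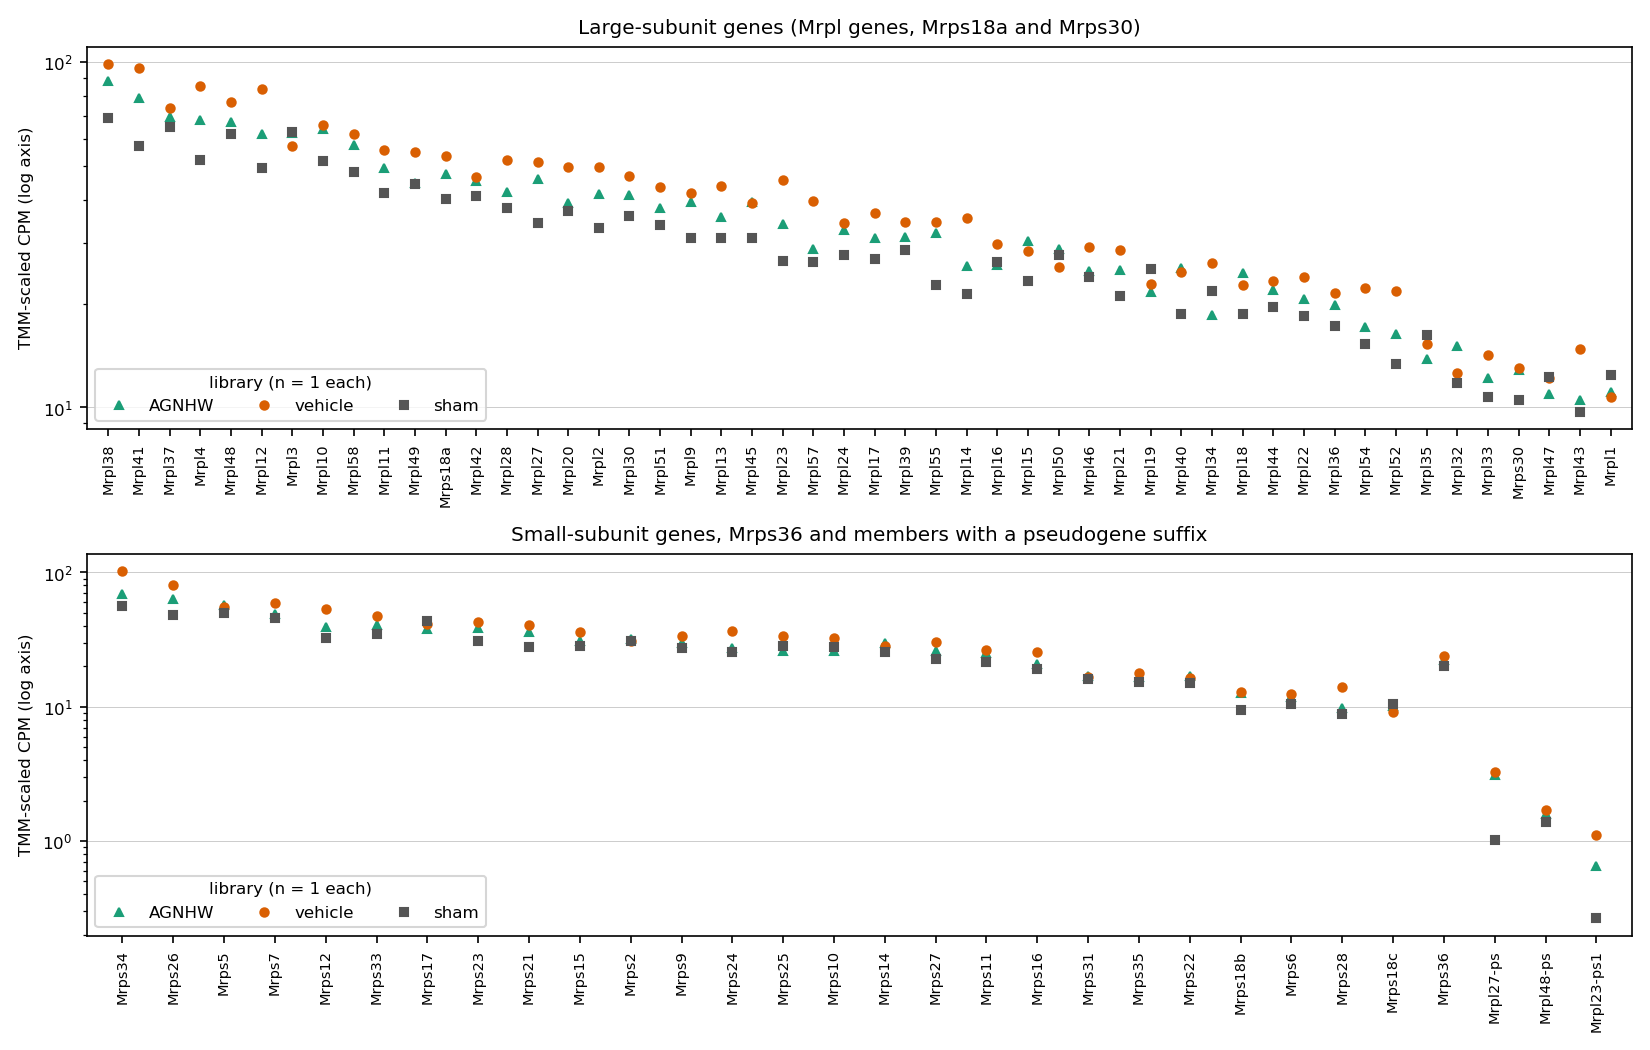
Level of each mitochondrial ribosomal protein gene in TMM-scaled CPM (log axis) in the AGNHW (triangles), vehicle (circles) and sham (squares) libraries, 1 library each, ordered by mean level within each group of genes. The vehicle library is the highest and sham the lowest for 57 of the 79 measured genes.

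Vehicle was set against sham to see what artery occlusion goes with in brain RNA. The family was somewhat higher in the vehicle library: 16 of 79 measured members passed the size rule as higher and 0 as lower, against 8.66% of all genes higher and 14.2% lower. The median log2 ratio of the members was 0.37, with the middle of the distribution between 0.24 and 0.50 and a range of -0.20 to 1.46, while the median of all genes was 0.01. The log2 ratio was above 0 for 71 members, the counting interval lay above 1 for 62, and it lay below 1 for 1 member, Mrpl3. Summed over the family, the level was 3000 CPM in vehicle and 2278 CPM in sham, a ratio of 1.32 (1.30 to 1.33).

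The large subunit supplied 11 of the members higher in vehicle, out of 50 genes with a median log2 ratio of 0.37. Mrpl23, whose bacterial counterpart sits at the exit of the peptide tunnel, had 692 counts in vehicle and 501 counts in sham, or 45.5 and 26.6 CPM, and was 1.71-fold higher (1.52 to 1.92). Mrpl12, part of the stalk that recruits translation factors, had 1272 counts in vehicle and 932 counts in sham and was 1.69-fold higher (1.55 to 1.84). Mrpl41 had 1465 counts in vehicle and 1077 counts in sham and was 1.68-fold higher (1.55 to 1.82). The counts look closer than the folds because the vehicle library is the smallest of the 3. Mrpl14 was 1.66-fold higher (1.46 to 1.89), Mrpl4 1.65-fold (1.51 to 1.79) and Mrpl52 1.63-fold (1.38 to 1.93). Mrpl55, Mrpl43, Mrpl2, Mrpl27 and Mrpl57 lay just above the limit, with ratios of up to 1.53.

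Other large-subunit genes did not pass. Mrpl38, a mitochondria-specific protein, had 1500 counts in vehicle and 1299 counts in sham, a ratio of 1.43 (1.33 to 1.54). Mrpl11, a protein of the base of the factor-binding stalk, had 847 counts in vehicle and 789 counts in sham, a ratio of 1.33 (1.20 to 1.47). Mrpl44, a protein related to ribonuclease III, had 354 counts in vehicle and 369 counts in sham, a ratio of 1.19 (1.02 to 1.38).

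The lowest ratios belonged mostly to the large subunit, which has 50 genes against 26 in the small subunit. Mrps18c of the small subunit, given below, was also among the lowest, at 0.875. Mrpl1 had 163 counts in vehicle and 233 counts in sham, a ratio of 0.865 (0.704 to 1.06). Mrpl3, a core protein near the catalytic centre, had 869 counts in vehicle and 1182 counts in sham, a ratio of 0.910 (0.832 to 0.994), and its interval was the only one wholly below 1. Mrpl19, Mrpl50 and Mrpl35 had ratios of 0.904, 0.919 and 0.942 with intervals that included 1.

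The small subunit had 4 of 26 genes higher in vehicle and 0 lower, with a median log2 ratio of 0.32. Mrps34 had 1560 counts in vehicle and 1054 counts in sham, or 103 and 56.0 CPM, and its ratio of 1.83 (1.69 to 1.98) was the highest of the 77 symbols without a pseudogene suffix. Mrps26, another mitochondria-specific protein, had 1229 counts in vehicle and 908 counts in sham and was 1.67-fold higher (1.54 to 1.83). Mrps12, a protein of the decoding centre, had 814 counts in vehicle and 616 counts in sham and was 1.63-fold higher (1.47 to 1.82). Mrps28, with 213 counts in vehicle and 166 counts in sham, was 1.59-fold higher (1.29 to 1.96).

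Several small-subunit genes known from inherited human disease or from the core of the subunit did not pass. Mrps7 had a ratio of 1.30 (1.18 to 1.43), Mrps16 of 1.34 (1.16 to 1.56), Mrps5 of 1.11 (1.01 to 1.22) and Mrps22 of 1.10 (0.925 to 1.31). Mrps14 and Mrps2 had ratios of 1.09 and 1.01 with intervals that included 1. Mrps36, outside the ribosome, had 363 counts in vehicle and 381 counts in sham, a ratio of 1.18 (1.02 to 1.36).

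By evolutionary origin, 9 of 48 genes with a bacterial counterpart and 6 of 28 mitochondria-specific genes were higher in vehicle. Their median log2 ratios were 0.37 and 0.35. After the correction for length and GC content described below, the medians were 0.07 and 0.23, with 3 and 6 genes higher. Over all genes 4.42% were higher after that correction. The summed level of small-subunit genes was 0.461 of that of large-subunit genes in vehicle and 0.462 in sham, and it was 0.448 in AGNHW. Both subunits were thus at nearly the same proportion in vehicle and sham.

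**Figure D2:**
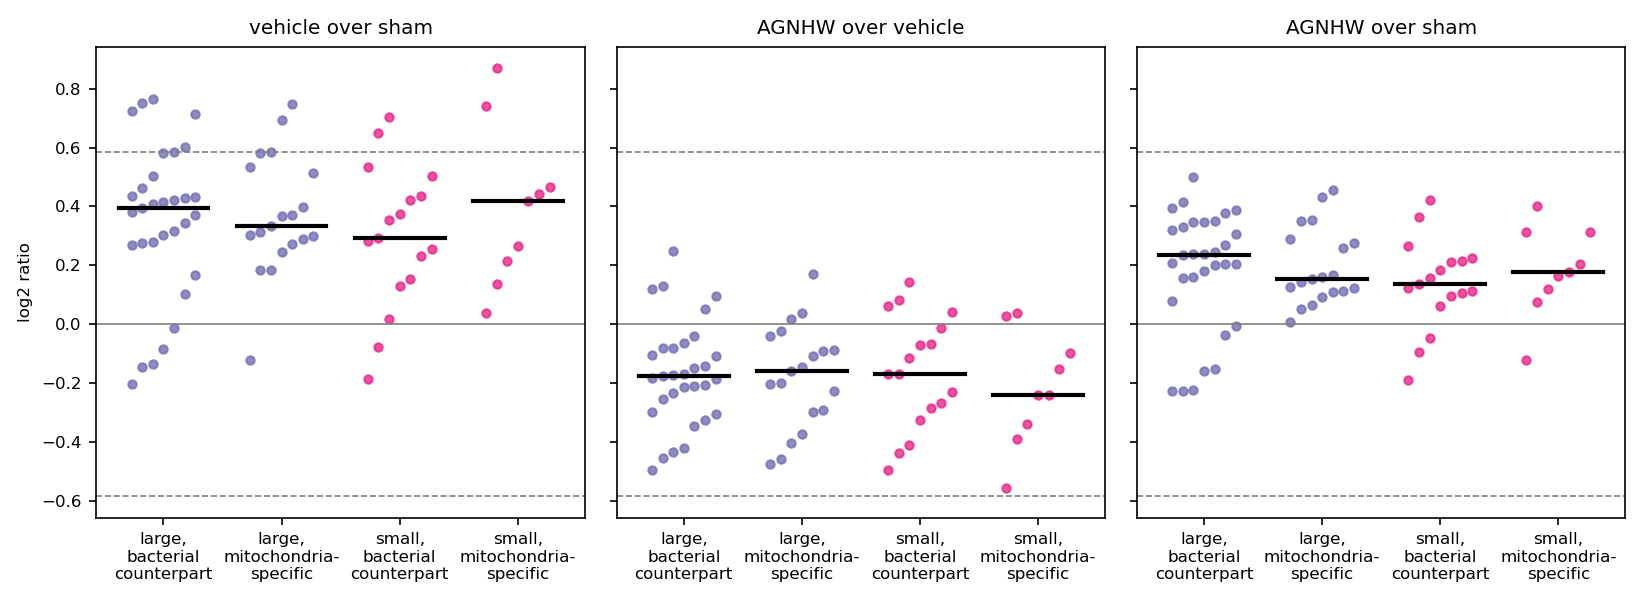
Log2 ratio of each of the 76 subunit genes in the 3 comparisons, grouped by subunit and by whether bacteria have a counterpart; each point is 1 gene, black bars are medians and dashed lines mark 1.5-fold. Points lie mostly above 0 for vehicle over sham and mostly below 0 for AGNHW over vehicle, in all 4 classes.

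Among the paralogues of the bacterial protein S18, Mrps18a and Mrps18b had similar ratios in vehicle against sham, and Mrps18c had a lower one. Mammals have Mrps18a in the large subunit and Mrps18b and Mrps18c at separate places in the small subunit. Mrps18a had 864 counts in AGNHW, 814 counts in vehicle and 754 counts in sham, with a ratio of 1.34 in vehicle against sham (1.21 to 1.48). Mrps18b had 233, 196 and 178 counts in the same libraries, with a ratio of 1.36 (1.11 to 1.68). Mrps18c had 186, 140 and 198 counts, with a ratio of 0.875 (0.699 to 1.09). Without correction it was the only one of the trio below 1, with an interval that includes 1. The interval of Mrps18c did not overlap those of Mrps18a and Mrps18b. After correction for transcript length and GC content, described below, log2 ratios were -0.18 for Mrps18a, 0.01 for Mrps18b and -0.49 for Mrps18c. Mrps18a was then also below 0. Mrps30, whose product is likewise placed in the large subunit in spite of its name, had 234 counts in AGNHW, 198 counts in vehicle and 198 counts in sham, a ratio of 1.24 in vehicle against sham (1.01 to 1.51).

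Mrpl27-ps had the highest ratio of the 79 measured members, at few counts. It had 57 counts in AGNHW, 50 counts in vehicle and 19 counts in sham, and was 3.26-fold higher in vehicle than in sham (1.89 to 5.85) and 3.09-fold higher in AGNHW than in sham (1.81 to 5.50). Mrpl48-ps had 29, 26 and 26 counts in AGNHW, vehicle and sham, with intervals that included 1. Reads of such copies can be assigned to the parent gene or the reverse, so these values are uncertain.

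The ratios ran with transcript length and base composition across the whole transcriptome, and most members have short transcripts: their median length was 1302 bases, against 2953 bases for all measured genes. Over 9941 genes of at least 10 CPM, length and GC content explained 48.3% of the spread (R squared) in log2 ratio between vehicle and sham. The shortest of 10 equal bins of transcript length, from 66 to 1307 bases, held 37 members. Its genes had a median log2 ratio of 0.46 and 32.3% of them were higher in vehicle, whereas the 37 members had a median of 0.43 and 11 were higher. In the next bin, up to 1824 bases, the medians were 0.32 for 12 members and 0.31 for all genes. Members of these bins had ratios close to those of other short transcripts, with 27 of 49 below the median of their bin. In the other 8 bins, which held 1 to 5 members each, 6 of 27 members were below the median of their bin. The medians were 0.35 for members and 0.15 for all genes in the fourth bin, 0.27 and 0.07 in the fifth, and 0.28 and -0.07 in the seventh. Members were not above all genes in the third bin, at 0.20 and 0.23, or the sixth, at -0.013 and 0.001. In these bins 2 of 4 and 3 of 5 members were below the median. The eighth bin had -0.08 and -0.18, and the ninth held 1 member at 0.27 against -0.26. The longest bin held Mrpl17 alone, at 0.44 against a median of -0.44.

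The log2 ratio also rose with GC content among the members, although members of higher GC content had shorter transcripts. The 26 members of lowest GC content had a median log2 ratio of 0.17 and 1 was higher in vehicle. The 25 members of middle GC content had a median of 0.37 with 4 higher, and the 26 of highest GC content had a median of 0.51 with 10 higher. Over 78 members with a transcript, Spearman's rho of the log2 ratio was 0.63 with GC content and -0.39 with length. All these points share the same libraries, so the coefficients describe them and carry no test.

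After removal of the trend on length and GC content, the median of 78 members was 0.11, and 9 were higher and 0 lower, against 4.42% of all genes higher and 6.9% lower. Only Mrps26 and Mrpl57 were called higher both with and without the correction. The corrected log2 ratio was 0.94 for Mrps26 and 0.96 for Mrpl57. The other corrected calls were Mrps14, Mrpl15, Mrps25, Mrpl51, Mrpl17, Mrpl48 and Mrps30. Several of these have annotated principal transcripts far longer than their coding part, such as 7300 bases for Mrpl17, 6073 bases for Mrps25 and 4278 bases for Mrps26. With coding length in place of transcript length, 4 of 77 members were called, against 4.63% of all genes, namely Mrps26, Mrpl17, Mrpl57 and Mrps30. Mrps34, highest without the correction among protein genes, had a corrected log2 ratio of 0.25, and Mrpl23 had 0.07. Medians after correction were 0.12 for the large subunit with 6 higher, and 0.10 for the small subunit with 3 higher.

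**Figure D3:**
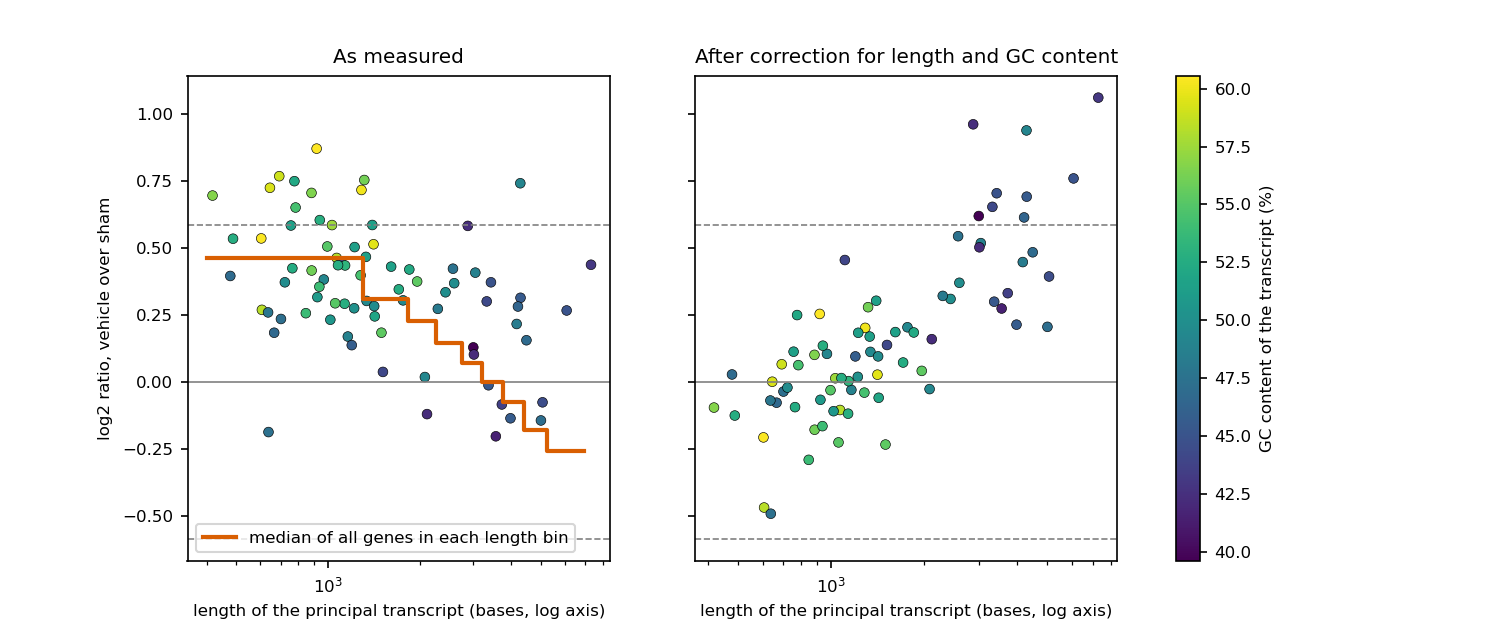
Log2 ratio of vehicle over sham of 78 members against the length of the principal transcript (log axis), as measured (left) and after correction for length and GC content (right); colour gives GC content, dashed lines mark 1.5-fold and the stepped line is the median of all genes in each length bin except the longest. As measured, most short members lie near the stepped line, while after correction the highest points are members with long annotated transcripts.

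Overlapping genes limit some of the values, because the strand setting of the counting is not given. Exons of 26 members share at least 100 bases with another gene in the GENCODE M21 annotation. These 26 had a median log2 ratio of 0.33 with 4 higher, and the 51 other protein genes of the family had 0.37 with 11 higher. Among the members called higher in vehicle, Mrps34 shares 1309 exon bases, over all annotated transcripts, with Mapk8ip3 on the opposite strand and 763 with Nme3, which was not among the counted genes, on its own strand. Mrpl43 shares 507 exon bases with Twnk, Mrpl12 200 with Gm16755 and Mrpl14 106 with Tmem63b, all on opposite strands. Mapk8ip3 had 10579 counts in vehicle and 10702 counts in sham, a ratio of 1.22 (1.19 to 1.26). Mrps25 shares 4590 exon bases with Nr2c2, which was lower in vehicle with 200 counts, against 616 counts in sham.

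AGNHW was set against vehicle to see the difference that goes with the drug, on the assumption that the drug was given after occlusion, on which the labels are silent. This comparison shares the vehicle library with the comparison above, so the values are set side by side and their opposite signs are not a separate result. In AGNHW against vehicle, 0 of 79 members were higher and 0 lower by the size rule, while 4.01% of all genes were higher and 2.56% lower. The median log2 ratio of the members was -0.17, with a range of -0.56 to 0.25, and that of all genes was 0.00. Counting intervals lay below 1 for 39 members and above 1 for 1 member. The summed level was 2618 CPM in AGNHW and 3000 CPM in vehicle, a ratio of 0.873 (0.862 to 0.884).

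The lowest ratios in AGNHW against vehicle lay inside the 1.5-fold limit. Mrps34 had 69.7 CPM in AGNHW and 103 CPM in vehicle, a ratio of 0.679 (0.630 to 0.732). Mrpl34 had 339 counts in AGNHW and 400 counts in vehicle, a ratio of 0.706 (0.609 to 0.818), and Mrps28 had a ratio of 0.704 (0.574 to 0.862). Mrpl43, Mrpl57 and Mrpl14 had ratios between 0.714 and 0.728, so even the lowest of the 79 measured members, Mrps34, was short of a 1.5-fold difference.

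At the upper end, Mrpl32, whose maturation depends on a protease of the inner membrane, had 275 counts in AGNHW and 192 counts in vehicle, a ratio of 1.19 (0.988 to 1.44). Mrpl50 had a ratio of 1.13 (0.987 to 1.29), Mrps18c of 1.11 (0.884 to 1.39) and Mrpl3 of 1.09, the only one of the family with an interval wholly above 1. Mrpl18 and Mrpl15 had ratios of 1.09 and 1.07 with intervals that included 1.

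Large and small subunits both had a median log2 ratio of -0.17 in AGNHW against vehicle. After correction for length and GC content the median of all members was -0.04. Then 0 members were higher and 2 lower, Mrps25 and Mrpl57, against 3.14% of all genes higher and 1.7% lower. In the shortest length bin the 37 members had a median of -0.23 and all genes of that bin -0.25.

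AGNHW against sham leaves out the vehicle library, though it shares a library with each comparison above. Only Mrpl27-ps was higher and 0 members were lower, while 3.32% of all genes were higher and 5.47% lower. The median log2 ratio of the members was 0.18, with a range of -0.23 to 1.39, and that of all genes was 0.00. Counting intervals lay above 1 for 39 members and below 1 for 3. The summed level was 2618 CPM in AGNHW and 2278 CPM in sham, a ratio of 1.15 (1.13 to 1.16).

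Mrpl55, with 585 counts in AGNHW and 425 counts in sham, had the highest ratio among protein genes at 1.42. Mrpl41 followed at 1.37 (1.27 to 1.49) and Mrpl40 at 1.36 (1.18 to 1.56). Mrps18b had a ratio of 1.35 (1.10 to 1.65) and Mrpl27 of 1.34 (1.20 to 1.48). Each of these intervals lay above 1, although none of the ratios reached 1.5.

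The lowest ratios of AGNHW against sham were those of Mrpl35 and Mrpl34, both 0.852, of Mrpl19 at 0.855 and of Mrps17 at 0.875. Mrpl47 and Mrpl1 followed at 0.892 and 0.898, with intervals that included 1. The intervals of Mrpl34 (0.736 to 0.986), Mrpl19 (0.746 to 0.979) and Mrps17 (0.790 to 0.970) lay below 1, and that of Mrpl35 (0.718 to 1.01) did not. After correction the median of the members was 0.07, with 0 higher and 0 lower against 2.84% and 3.09% of all genes.

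Read across the libraries, 57 of the 79 measured members were highest in vehicle, next in AGNHW and lowest in sham. Mrpl12 was of this kind, with 61.9 CPM in AGNHW, 83.6 CPM in vehicle and 49.5 CPM in sham. A further 10 members were highest in AGNHW and lowest in sham, and 4 members were lowest in AGNHW and highest in sham. Neighbours in these orders can be closer than their counting intervals, as for Mrps2 with 32.0 CPM in AGNHW, 31.1 CPM in vehicle and 30.7 CPM in sham.

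Proteins of the same ribosome that carry other names were not counted among the 80. Of 5 such genes, 2 were higher in vehicle than in sham and 0 lower. Their median log2 ratio was 0.49 and, after correction, 0.22 with 1 higher. Gadd45gip1, which lies at the exit of the peptide tunnel, had 365 counts in vehicle and 246 counts in sham and was 1.84-fold higher (1.56 to 2.17). It was also 1.62-fold lower in AGNHW, with 270 counts, than in vehicle (1.38 to 1.91). Aurkaip1, of the small subunit, was 1.67-fold higher in vehicle than in sham (1.54 to 1.82). Chchd1 had a ratio of 1.42 (1.22 to 1.65).

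Genes that build or use the mitochondrial ribosome had calls in both directions in vehicle against sham before correction. The shares over all genes, 8.66% higher and 14.2% lower, apply to each list that follows. After correction for length and GC content these shares were 4.42% and 6.9%. Assembly and rRNA modification gave 2 higher and 1 lower among 26 genes, and 1 higher and 0 lower after correction. The median was 0.31, and 0.04 after correction. Rpusd3, a pseudouridine synthase, had 90 counts in vehicle and 43 counts in sham and was 2.59-fold higher (1.78 to 3.82), Mpv17l2 was 1.55-fold higher (1.37 to 1.75), and Mettl15, a methyltransferase of the small rRNA, was 1.73-fold lower (1.09 to 2.82). Translation factors gave 2 higher and 1 lower among 15, with a median of 0.06, and 0.09 after correction. The corrected counts were also 2 higher and 1 lower. Guf1, a back-translocating elongation factor, was 1.57-fold lower (1.34 to 1.84), and Oxa1l, which inserts new proteins into the inner membrane, was just past the limit with 1327 counts in vehicle and 1092 counts in sham. Mtrf1, a release factor, had 97 counts in vehicle and 80 counts in sham, a ratio at the limit of the rule (1.10 to 2.04).

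Of 22 mitochondrial aminoacyl-tRNA synthetase genes, 1 was higher (Lars2, 1.62-fold, 1.55 to 1.69) and 1 lower (Mars2, 1.57-fold). Their median log2 ratio was 0.13, and 0.23 after correction, with 1 higher and 1 lower after correction as well. Transcription and replication of mitochondrial DNA gave 0 higher and 1 lower among 13 genes, with a median of -0.05, and 0.04 after correction. The corrected counts were also 0 and 1. Before correction the lower one was Tfb2m, an initiation factor of mitochondrial transcription, 1.69-fold lower (1.35 to 2.12). Protein import had 2 of 23 genes higher and 1 lower, with a median of 0.31, and 0.08 after correction. With the correction, 3 import genes were higher and 0 lower. Timm13, a chaperone of the intermembrane space, was 1.69-fold higher (1.56 to 1.82), and the receptor gene Tomm70a was 1.51-fold lower (1.41 to 1.62).

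The messages that the mitochondrial ribosome translates gave 0 of 13 genes higher in vehicle than in sham and 1 lower. Their median log2 ratio was 0.13, and 0.30 after correction, with 1 higher and 1 lower after correction. The lower one, mt-Nd3, had 162 counts in vehicle and 401 counts in sham a ratio of about 0.5 (0.414 to 0.601). In AGNHW it had 736 counts and was 3.78-fold higher than in vehicle (3.19 to 4.51). The other named messages, mt-Atp6 and mt-Nd6, had ratios of 1.41 (1.37 to 1.46) and 1.37 (1.34 to 1.39) in vehicle against sham. Summed over the 13 messages, the level was 47649 CPM in AGNHW, 48712 CPM in vehicle and 50438 CPM in sham. The sums of the ribosomal protein genes and of these messages therefore stood in different orders across the libraries. Gene by gene the contrast was smaller. The summed ratio of the messages in vehicle against sham was 0.966, yet 10 of the 13 had a log2 ratio above 0, as most members did.

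Regulators of mitochondrial gene expression had 0 of 9 genes higher in vehicle than in sham and 3 lower. Their median log2 ratio was -0.26. The corrected median was -0.12, with 0 higher and 3 lower. Gabpa, the DNA-binding part of nuclear respiratory factor 2, had 70 counts in vehicle and 200 counts in sham and was 2.31-fold lower (1.75 to 3.08). It was 1.82-fold higher in AGNHW, with 153 counts, than in vehicle (1.36 to 2.45). The coactivator genes Ppargc1b and Ppargc1a were also lower in vehicle than in sham, by 1.87-fold (1.35 to 2.61) and 1.53-fold (1.32 to 1.78). Nrf1 and Yy1 had ratios of 1.07 (0.911 to 1.26) and 0.900 (0.834 to 0.971).

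Other families of short transcripts had higher medians than the mitochondrial ribosomal proteins in vehicle against sham. Cytosolic ribosomal proteins gave 43 higher and 0 lower among 74 measured genes, with a median of 0.62, and 7 were higher after correction with a median of 0.17. The nuclear respiratory chain gave 35 higher and 0 lower among 77, with a median of 0.56, and 3 were higher after correction with a median of 0.14. The median transcript length was 874.5 bases for the cytosolic ribosomal proteins and 835 bases for the respiratory chain. Rps14 was 1.91-fold higher (1.84 to 1.98) and Ndufa13 1.82-fold higher (1.73 to 1.93). In AGNHW against vehicle the medians of the cytosolic ribosomal proteins and the respiratory chain were -0.28 and -0.31, and after correction -0.04 and -0.05.

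**Figure D4:**
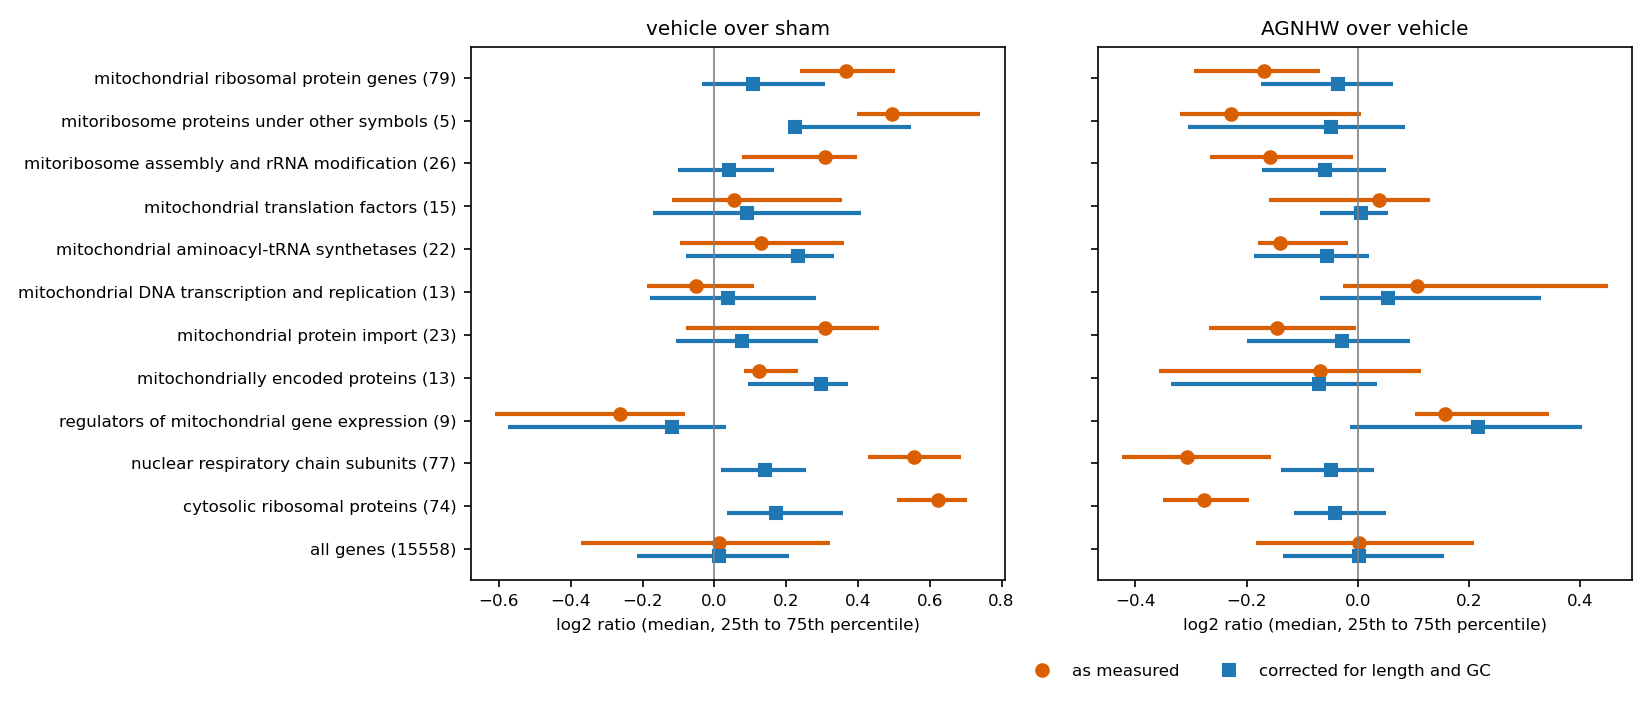
Median log2 ratio (points) and its 25th to 75th percentile over genes (bars) for the mitochondrial ribosomal protein genes and the other lists, as measured (circles) and corrected for length and GC content (squares); numbers in brackets are measured genes. In vehicle over sham the members move from a median of 0.37 to 0.11 with the correction, and the cytosolic ribosomal proteins from 0.62 to 0.17.

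Promoters of these genes are known for binding sites of ETS-family factors such as nuclear respiratory factor 2, of nuclear respiratory factor 1 and of YY1. RefSeq windows of 300 bases on build GRCm38.p6, from 250 bases before to 50 after the transcription start, were found for 68 of the 80 members and for 11553 measured genes. Exact matches on either strand were counted for CCGGAAG (ETS), GCATGCG (core of nuclear respiratory factor 1) and AAGATGG (YY1), and overlapping matches of a motif on both strands counted as 1 window. The ETS letters were present in 25 members, or 36.8%, and in 18.02% of measured genes. The letters for nuclear respiratory factor 1 were present in 8 members, or 11.8%, and in 6.78% of measured genes. The YY1 letters were present in 13 members, or 19.1%, and in 7.91% of measured genes. At least 1 of the 3 motifs was present in 37 members, or 54.4%, and in 29.1% of measured genes.

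General promoter letters differed less or the other way. CCAAT was present in 38.2% of the member windows and 42.5% of measured genes, GGGCGG in 50% and 67.3%, and TATAAA in 7.35% and 8.84%. Of the 12 windows of members higher in vehicle, 6 held the ETS letters, 0 those of nuclear respiratory factor 1 and 2 those of YY1. Of the 56 windows of members that did not pass, 19 (33.9%), 8 (14.3%) and 11 (19.6%) held the same letters. A match describes letters in the window and not a bound site.

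The windows of the S18 paralogues show how members differ in these letters, and those of Mrpl23 and Mrpl1 stand for the members near the top and at the bottom of the ratio of vehicle against sham. Capitals mark the matches to the ETS, nuclear respiratory factor 1 and YY1 letters on either strand, and each window runs 5′ to 3′ in the direction of its gene. The regions are chr17:46110754-46111053 on the plus strand for Mrps18a, chr17:35916391-35916690 on the minus strand for Mrps18b, chr5:100798509-100798808 on the plus strand for Mrps18c, chr7:142532782-142533081 on the plus strand for Mrpl23 and chr5:96209865-96210164 on the plus strand for Mrpl1.
Mrps18a: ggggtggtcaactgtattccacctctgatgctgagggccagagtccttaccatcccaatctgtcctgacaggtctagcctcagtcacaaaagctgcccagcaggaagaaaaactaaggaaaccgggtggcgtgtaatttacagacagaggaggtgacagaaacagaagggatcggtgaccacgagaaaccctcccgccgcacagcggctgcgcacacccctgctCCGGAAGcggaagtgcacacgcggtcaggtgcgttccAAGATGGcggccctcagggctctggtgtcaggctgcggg
Mrps18b: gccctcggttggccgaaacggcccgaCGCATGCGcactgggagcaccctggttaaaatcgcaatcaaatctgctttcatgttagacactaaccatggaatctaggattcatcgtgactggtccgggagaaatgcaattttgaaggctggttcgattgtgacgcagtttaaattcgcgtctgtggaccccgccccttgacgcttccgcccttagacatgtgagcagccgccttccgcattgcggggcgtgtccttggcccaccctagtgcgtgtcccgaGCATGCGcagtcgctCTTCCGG
Mrps18c: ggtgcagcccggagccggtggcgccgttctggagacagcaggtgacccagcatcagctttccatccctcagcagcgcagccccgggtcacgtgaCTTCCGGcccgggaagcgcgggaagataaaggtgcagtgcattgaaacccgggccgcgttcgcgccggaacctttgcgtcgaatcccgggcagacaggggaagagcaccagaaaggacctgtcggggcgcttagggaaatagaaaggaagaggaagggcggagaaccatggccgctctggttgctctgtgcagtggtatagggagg
Mrpl23: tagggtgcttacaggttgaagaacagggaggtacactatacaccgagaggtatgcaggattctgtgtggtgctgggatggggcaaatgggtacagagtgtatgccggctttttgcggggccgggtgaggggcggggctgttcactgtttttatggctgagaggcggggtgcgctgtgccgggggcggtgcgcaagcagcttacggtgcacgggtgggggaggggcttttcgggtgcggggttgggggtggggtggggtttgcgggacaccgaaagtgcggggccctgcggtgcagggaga
Mrpl1: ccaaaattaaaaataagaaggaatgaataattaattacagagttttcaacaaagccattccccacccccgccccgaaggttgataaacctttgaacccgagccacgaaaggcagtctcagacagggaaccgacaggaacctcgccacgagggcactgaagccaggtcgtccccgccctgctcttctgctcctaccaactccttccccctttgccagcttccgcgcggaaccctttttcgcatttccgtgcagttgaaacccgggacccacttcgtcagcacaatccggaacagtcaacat
Mrps18a holds the ETS letters and those of YY1, Mrps18b the ETS letters and those of nuclear respiratory factor 1, and Mrps18c the ETS letters alone. The windows of Mrpl23 and Mrpl1 hold none of the 3 motifs, although their ratios in vehicle against sham were 1.71 and 0.865.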

How the data were processed

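For 3 libraries the authors deposited unnormalised read counts, 1 whole number per gene symbol. The submitters' processing notes name HTSeq 0.6.0, TopHat2 2.0.12, Bowtie2 2.2.3 and build mm9, per the labels; the sources used here do not give their settings. No listed gene had fewer than 21 counts in all, so rarer genes were left out beforehand. Libraries held 15718594 to 18286151 counts and were grouped by title.

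Scaling used TMM (edgeR 4.0.16, R 4.3.3); its factors were 1.00 (AGNHW), 0.968 (vehicle) and 1.03 (sham). DESeq2 1.42.0 gave alternative size factors. With 1 library per group neither tool's test could be fitted, so no p-value is given. Ratios are of CPM, with exact conditional binomial intervals at 95% that cover counting error only: without molecular identifiers, reads are not independent molecules. Log2 ratios carry a prior count of 5, which the size rule does not use. The trend was an additive natural cubic spline of 4 degrees of freedom on log length and on GC content of the GENCODE M21 principal transcript, fitted to genes of at least 10 mean CPM in Python 3.11.15 with patsy 1.0.2. The scripts were tested on simulated data.

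The members and lists were chosen with earlier results of these data known. Genes named are, in each comparison, the 6 highest and 6 lowest members and all called members. The extremes of level per kilobase and a fixed set of 17 members of known roles were also named. Genes of the other lists were drawn from the 3 per list with the largest absolute log2 ratio in vehicle against sham. Not all of those are named. Nrf1, Yy1, Mapk8ip3, Twnk and Nr2c2 were added after their values were seen. Alternatives were other scalings, filters, folds, priors and length corrections.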

Additional observations from a re-analysis of the deposited data

How the results depend on the processing

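With DESeq2 size factors, a prior count of 0.5 or no requirement on the interval, no count of members and no named call changed. Without a minimum mean CPM, Mrpl23-ps1 was also called higher in vehicle than in sham. In vehicle against sham, the 16 members called higher became 10 with plain CPM, 43 at the smaller alternative ratio, 1 at a ratio of at least 2, 9 after correction for length and GC content and 2 after correction for length alone, which also called 1 lower. The corrections with median transcript length and with coding length, chosen after seeing the data, gave 8 and 4. Over all genes, 890 of 15562 were higher with plain CPM, 857 of 15234 with median length and 634 of 13681 with coding length. Among all genes, 3377 of 15558 were higher at the smaller alternative ratio, a smaller share than the 43 of 79 members. At a ratio of at least 2 it was 307 of 15558, and after correction for length alone 666 of 15234. Both shares were larger than those of the members, 1 of 79 and 2 of 78. The median of 0.37 became 0.28 with plain CPM, 0.11 with length and GC content, 0.061 with length alone, 0.27 with median length and 0.18 with coding length. Mrpl52, at 0.69, was at -0.10 after correction for length and GC content. Plain CPM moved the median of all genes to -0.07, and the share of higher genes among all called genes to 23.9%, against 37.9%; in AGNHW against vehicle that share became 72.3%, against 61.1%.

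In AGNHW against vehicle, 17 members were lower at the smaller alternative ratio, and 2 with length and GC content, by principal or by median length. Its median of -0.17 became -0.12 with plain CPM, -0.035 with length and GC content, -0.0022 with length alone and -0.10 with median or coding length. In AGNHW against sham, 17 were higher at the smaller alternative ratio, and 0 at a mean of at least 10 CPM, without pseudogene symbols, or after correction by length and GC content, length alone or coding length. Its median of 0.18 became 0.15 with plain CPM, 0.067 with length and GC content, 0.043 with length alone, 0.16 with median length and 0.11 with coding length. At the smaller alternative ratio, 1315 of 15558 genes were lower in AGNHW than in vehicle, against 17 of 79 members. After correction for length and GC content, 259 of 15234 were lower by principal length and 319 of 15234 by median length. Each of these corrections called 2 of 78 members lower. In AGNHW against sham, 1540 of 15558 genes were higher at that ratio, against 17 of 79 members. Mrpl27-ps has no annotated length and leaves the corrected counts for that reason. The cause of the other shifts was not tested.

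No paired analysis was possible because each group had 1 library. Leaving out a library ends its group. Depth limits Mrpl23-ps1, Mrpl48-ps and Mrpl27-ps, whose intervals are wide.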
